A study of Mus musculus with 24 samples.

Results

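The transition from the end of the dark phase into the light was examined in the ventral tegmental area (VTA) of mice by setting the 4 arrays labelled ZT4 against the 4 labelled ZT0. ZT, zeitgeber time, counts hours from lights on, so that ZT0 is the moment the lights come on and ZT4 lies 4 h into the light. These 8 arrays were chosen by their labels, out of 24 that cover 6 time points at intervals of 4 h with 4 arrays each. Every group, these included, held wild type male C57BL/6N mice of 10 to 12 weeks, kept at 12 h light and 12 h dark with chow and water always present, and no group carried a mutation or received a treatment. The VTA was taken as a punch 0.5 mm wide from slices 0.5 mm thick and hybridised to Affymetrix Mouse Gene 1.0 ST arrays. A punch of that size holds every cell type of the spot, neurons as well as glia and vessels. The labels do not say which arrays share a mouse or a day, so the p values measure the spread between these samples.

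The VTA is the midbrain origin of the dopamine neurons that reach the striatum and the cortex. Mice are active and feed mostly in the dark, so ZT0 closes their active phase and ZT4 falls in their rest. In most tissues a clock runs by a loop in which ARNTL and CLOCK drive genes such as Per, Cry and Nr1d1, whose proteins then hold the loop back. Beside the clock, body temperature, feeding, corticosterone and sleep follow the daily cycle, and each of them is known to act on genes of its own, among them heat shock, cold-inducible, endoplasmic reticulum (ER) chaperone and immediate early genes.

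ZT0 replicate 4 stood apart and is given here before any result. Its median correlation with the other 23 arrays was 0.970, against 0.990 to 0.992 in the other 7 arrays of the comparison. Compared with the mean of ZT0 replicates 1 to 3, this array was lower by over 1 log2 unit in 327 transcripts and higher by as much in 60, whereas at most 17 transcripts stood so far from their group in any of the other 23 arrays. The largest gap belonged to Gsdme, a pore-forming gasdermin, which read 8.84, 8.51 and 8.88 in ZT0 replicates 1 to 3 and 5.72 in replicate 4. ZT4 replicate 4 also read lowest of its group for Gsdme, at 7.67 against 8.78 to 8.85. Because of this array, results are given with it and without it.

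Dopamine neuron genes gave signal in all 8 arrays. Th, tyrosine hydroxylase, ranged from 7.51 to 8.06 and Slc6a3, the dopamine transporter, from 8.01 to 8.94, both in log2 units of the array signal. The values carry no detection call, so they do not show on their own that a gene is expressed.

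No transcript passed the test between ZT4 and ZT0 after adjustment over the 23410 tested. The smallest Benjamini-Hochberg adjusted p of limma was 0.808 with all arrays and 0.990 without ZT0 replicate 4, and the share called was 0% in both. At an unadjusted limma p under 0.05 the comparison held 305 transcripts higher at ZT4 (1.30%) and 271 lower (1.16%), which together is 2.46% where 5% would fall under that threshold if nothing differed. Without ZT0 replicate 4 the counts were 623 higher (2.66%) and 493 lower (2.11%), which quantile scaling turned into 508 and 601. Only 260 transcripts were in both sets with the same sign, 45.1% of the first set and 23.3% of the second. The 4 ZT4 arrays did not overlap the 4 ZT0 arrays in 168 transcripts that were higher (0.718%) and 149 that were lower (0.636%). Against 3 ZT0 arrays these counts were 740 (3.16%) and 423 (1.81%). Where nothing differs, 3 arrays separate from 4 more often than 4 do, so the rise on its own does not show a difference. Groups this small also separate in some transcripts where nothing differs, so a lack of overlap is given below as a description and no test. The median standard error of a difference was 0.0933 log2 units. Every difference below is therefore a measured difference of means that did not pass the adjusted test. The range in parentheses after a difference is its 95% confidence interval from limma, not adjusted for the number of transcripts.

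The clock genes were close in level at these times, and Nr1d1 and Cry1 were the members of smallest p. Nr1d1 encodes the repressor REV-ERBα. It read 8.18, 8.14, 8.20 and 8.36 at ZT0 and 8.32, 8.34, 8.50 and 8.58 at ZT4. ZT0 replicate 4 was the ZT0 array that overlapped the ZT4 range, and without it the groups separated. The difference was 0.22 (0.04 to 0.39) log2 units with all arrays and 0.27 (0.09 to 0.45) without ZT0 replicate 4. Cry1, a repressor of ARNTL and CLOCK, read 7.62, 7.43, 7.59 and 7.33 at ZT0 and 7.29, 7.29, 7.39 and 7.26 at ZT4. Here the low ZT0 array was again replicate 4. The difference was -0.19 (-0.37 to -0.01) with all arrays and -0.24 (-0.43 to -0.05) without that array.

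Of the 14 core clock genes measured, 8 had a higher mean at ZT4 with all arrays and 6 without ZT0 replicate 4, with differences from -0.19 to 0.22. Arntl, the activator of the loop, was 7.05 ± 0.10 (SD, n = 4) at ZT0 and 6.93 ± 0.05 at ZT4, and Per2, a target of ARNTL and CLOCK that represses them, 6.65 ± 0.12 and 6.63 ± 0.15. Both sets of arrays overlapped, and the intervals of the differences reached from -0.27 to 0.03 for Arntl and from -0.18 to 0.14 for Per2. The 6 clock output genes, which include the transcription factor Dbp and its relatives Tef and Hlf, lay between -0.06 and 0.09, and none had p under 0.05. The letters CACGTG, an E-box, stood within 250 bases before the start of 4 of the 12 core clock genes with a promoter in RefSeq (Bhlhe41, Ciart, Cry1 and Per1) and of 6.86% of 27025 genes. Of these 4 genes, 2 had a lower mean at ZT4 with all arrays and all 4 without ZT0 replicate 4. The shares of all transcripts were 49.1% and 44.8%. Without that array Per1 and Ciart differed by only -0.007 and -0.009, and Bhlhe41 and Cry1 by -0.17 and -0.24. With all arrays Bhlhe41 differed by 0.08.

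Both cold-inducible genes had a higher mean at ZT4. Cirbp, an RNA-binding protein made more when cells are cooled, read 6.95, 6.95, 7.07 and 7.05 at ZT0 and 7.13, 7.10, 7.20 and 7.17 at ZT4. Every ZT4 array was above every ZT0 array, by a narrow gap. The difference was 0.15 (9.2e-05 to 0.30), and 0.16 (0.0025 to 0.32) without ZT0 replicate 4. Rbm3, of the same family, read 9.11, 9.16, 9.41 and 9.23 at ZT0 and 9.39, 9.51, 9.34 and 9.32 at ZT4, a difference of 0.17 (-0.06 to 0.39), and of 0.17 (-0.08 to 0.41) without ZT0 replicate 4, with groups that overlapped. The other Rbm3 probe sets, of lower level, differed by 0.26 and 0.20 with all arrays, the former with an unadjusted limma p under 0.05, and by 0.19 and 0.15 without that array.

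All 17 heat shock proteins and co-chaperones measured had a lower mean at ZT4, where 49.1% of all transcripts did. Without ZT0 replicate 4 the count was again 17, beside 44.8% of all. The median difference of the list was -0.058 with all arrays and -0.149 without that array, against 0.0017 and 0.0131 over all transcripts. The count rested on single arrays: it was 9 of 17 when ZT0 replicate 1 was left out, 10 when ZT0 replicate 3 was, and 11 when ZT4 replicate 4 was. With ZT0 replicate 4 already left out, leaving out 1 more array gave 15 to 17. The mean level of the list was 9.52, 9.24, 9.45 and 9.08 in the ZT0 arrays and 9.26, 9.32, 9.23 and 9.13 in the ZT4 arrays, so ZT0 replicates 1 and 3 were the highest of the 8 and the arrays numbered 4 the lowest of each group. Members with an unadjusted p under 0.05 and a lower mean numbered 2 of 17 with all arrays, beside 1.16% of all transcripts, and 6 of 17 without ZT0 replicate 4, beside 2.11%.

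Dnajb1, the HSP40 co-chaperone that hands substrates to HSP70, had the smallest p of the list. It read 7.65, 7.35, 7.72 and 7.75 at ZT0 and 7.26, 7.33, 7.22 and 7.17 at ZT4. ZT0 replicate 2 was low and lay just above the highest ZT4 array, and the groups did not overlap. The difference was -0.37 (-0.57 to -0.18), a ratio of 0.772, and -0.33 (-0.54 to -0.13) without ZT0 replicate 4. Hspa8, the constitutive HSP70, had means of 11.93 and 11.78 and a difference of -0.15 (-0.30 to -0.002), and -0.15 (-0.31 to 0.01) without ZT0 replicate 4. Ahsa1, the activator of the HSP90 ATPase, differed by -0.15 (-0.31 to 0.01) and by -0.18 (-0.35 to -0.01), with no overlap of the arrays in either setting.

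In the fit with all arrays weighted equally, other members did not reach an unadjusted p under 0.05, and without ZT0 replicate 4 some did. Chordc1, an HSP90 co-chaperone, read 8.46, 7.99, 8.57 and 7.40 at ZT0 and 8.05, 8.17, 7.88 and 7.77 at ZT4. Its ZT0 arrays spanned more than 1 log2 unit and enclosed the ZT4 arrays. The difference was -0.14 (-0.46 to 0.19) with all arrays and -0.37 (-0.62 to -0.13) without that one. Hspa4, a nucleotide exchange factor of HSP70, differed by -0.03 with it and by -0.23 (-0.41 to -0.06) without it. For Dnaja1, another HSP40, the values were -0.13 and -0.24 (-0.45 to -0.04), and for the mitochondrial co-chaperonin Hspe1 -0.06 and -0.24 (-0.48 to -0.0035). Another probe set of lower level gave -0.08 and -0.18 for Dnaja1, and -0.02 and -0.22 for Hspe1. Neither of these had an unadjusted limma p under 0.05 without ZT0 replicate 4. With all arrays kept but weighted by their fit, the differences were -0.380 for Chordc1, -0.188 for Hspa4, -0.236 for Dnaja1 and -0.207 for Hspe1, and those of Chordc1, Hspa4 and Dnaja1 had an unadjusted limma p under 0.05. Chordc1, Hspa4, Dnaja1 and Hspe1 are named here after their values were seen. Hspd1, the partner of Hspe1, has several probe sets, of which the one of higher level differed by -0.05 and another by 0.08. Hspa1a has a near-identical neighbour, Hspa1b, whose signal its probes may share.

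**Figure D1:**
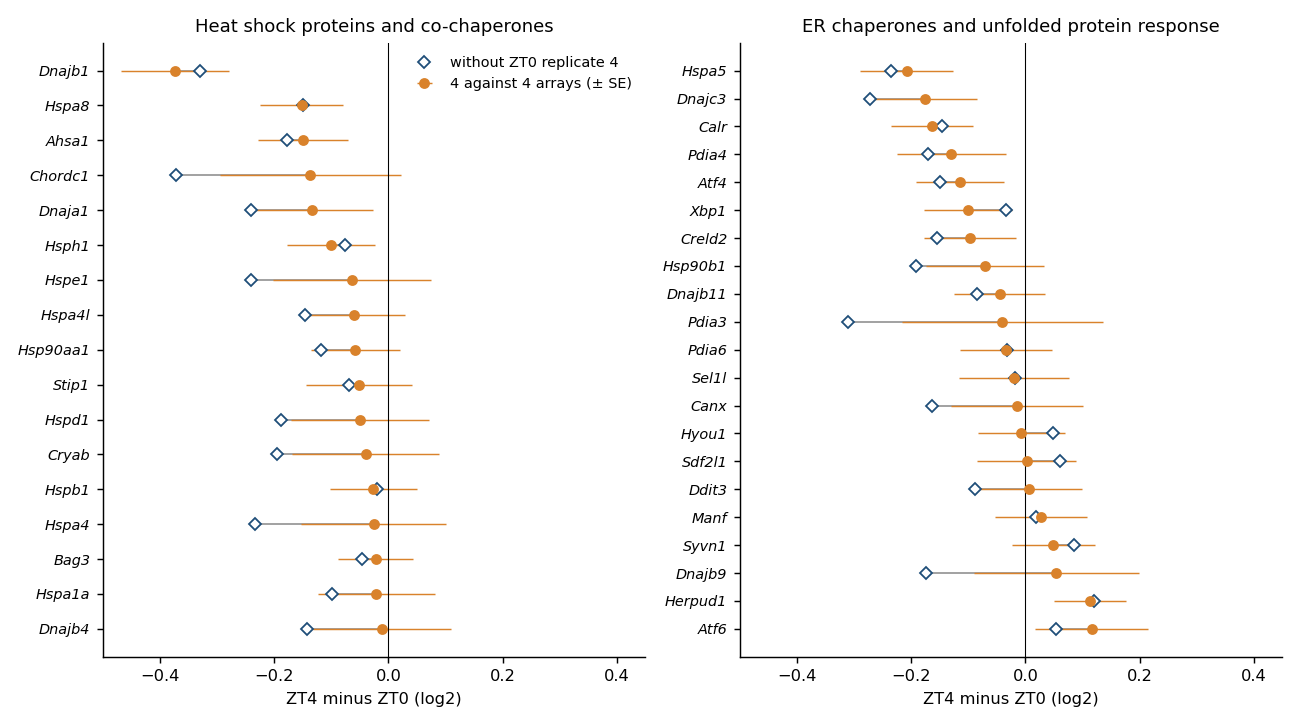
Difference of means, ZT4 minus ZT0 (log2, x axis), of the 17 heat shock genes on the left and the 21 ER chaperone genes on the right, each gene on a row of its own. Filled circles with bars are the differences over 4 against 4 arrays ± standard error, and open diamonds those without ZT0 replicate 4. All circles and diamonds on the left lie below 0, and the diamonds of Chordc1, Hspa4, Hspe1 and Pdia3 lie far to the left of their circles.

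The heat shock element was searched as GAANNTTC, which reads the same on both strands. It stood in the 250 bases before the start of 5 of the 14 measured heat shock members with a promoter in RefSeq, Dnaja1, Hspa1a, Hspb1, Hspd1 and Hspe1, and of 7.73% of 27025 genes. The differences of those 5 ran from -0.13 to -0.02 with all arrays and from -0.24 to -0.02 without ZT0 replicate 4. Dnajb1, the member with the largest difference over all arrays, and Chordc1, the one with the largest without ZT0 replicate 4, were not among them.

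The chaperones of the endoplasmic reticulum, which fold secreted and membrane proteins and are induced when unfolded protein builds up there, had a lower mean at ZT4 in 14 of 21 members with all arrays and in 15 without ZT0 replicate 4. The list's median difference was -0.034 and -0.089. The ER stress element, CCAAT followed after 9 bases of any kind by CCACG, was searched on both strands and found within 250 bases before the start in 8 of the 18 members with a promoter in RefSeq and in 0.13% of 27025 genes (35 genes). The 8 were Calr, Canx, Creld2, Dnajc3, Hsp90b1, Hspa5, Pdia6 and Syvn1, and 7 of them had a lower mean at ZT4 in either setting. Their differences ran from -0.21 to 0.05 with all arrays and from -0.27 to 0.08 without ZT0 replicate 4. Of all transcripts 49.1% and 44.8% had a lower mean. The promoters of the 3 members of smallest p are shown because they carry this element, in capitals, and each is read 5′ to 3′ towards the gene's start (RefSeq, build GRCm38.p6).
Hspa5 (chr2:34771840-34772089, + strand): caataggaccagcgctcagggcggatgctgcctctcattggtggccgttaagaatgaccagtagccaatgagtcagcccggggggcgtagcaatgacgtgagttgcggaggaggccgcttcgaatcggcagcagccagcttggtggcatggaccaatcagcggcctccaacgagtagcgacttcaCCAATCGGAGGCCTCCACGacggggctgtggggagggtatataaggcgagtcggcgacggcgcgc
Calr (chr8:84846932-84847181, - strand): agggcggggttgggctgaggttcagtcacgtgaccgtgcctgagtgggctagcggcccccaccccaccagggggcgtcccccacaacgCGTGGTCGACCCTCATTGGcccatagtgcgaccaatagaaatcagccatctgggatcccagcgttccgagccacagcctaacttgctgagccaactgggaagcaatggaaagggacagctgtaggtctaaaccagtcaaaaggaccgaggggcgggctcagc
Dnajc3 (chr14:118937682-118937931, + strand): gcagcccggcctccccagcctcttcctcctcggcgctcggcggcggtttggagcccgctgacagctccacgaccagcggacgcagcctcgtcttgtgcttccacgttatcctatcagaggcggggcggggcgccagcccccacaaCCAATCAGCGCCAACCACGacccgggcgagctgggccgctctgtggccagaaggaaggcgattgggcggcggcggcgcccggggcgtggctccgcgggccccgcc
The element begins 65 bases before the start of Hspa5, 162 before that of Calr, where it lies on the opposite strand, and 105 before that of Dnajc3.

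Hspa5 encodes BiP, the HSP70 of the ER lumen. It read 9.97, 9.84, 9.89 and 9.79 at ZT0 and 9.63, 9.68, 9.76 and 9.58 at ZT4. All ZT4 arrays were below all ZT0 arrays, and ZT0 replicate 4 was the lowest of its group. The difference was -0.21 (-0.37 to -0.04) and -0.24 (-0.41 to -0.06) without that array. Calr, calreticulin, a calcium-binding lectin chaperone, read 8.72, 8.58, 8.69 and 8.73 at ZT0 and 8.52, 8.53, 8.50 and 8.53 at ZT4. The ZT4 arrays were almost alike and all lower than the ZT0 arrays. The difference was -0.16 (-0.31 to -0.02), and -0.15 (-0.30 to 0.01) without ZT0 replicate 4.

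Dnajc3, an inhibitor of the kinase PERK, read 8.79, 8.74, 8.75 and 8.37 at ZT0 and 8.59, 8.47, 8.47 and 8.41 at ZT4. ZT0 replicate 4 lay below all ZT4 arrays and the other ZT0 arrays above them, and the difference was -0.18 (-0.36 to 0.01) with it and -0.27 (-0.45 to -0.10) without it. Pdia3, a disulfide isomerase that works with Calr and is named after its values were seen, differed by -0.04 with all arrays and by -0.31 (-0.57 to -0.05) without ZT0 replicate 4. Herpud1, which takes part in the degradation of ER proteins, ran the other way. It read 7.83, 7.80, 7.73 and 7.82 at ZT0 and 7.88, 7.84, 7.95 and 7.97 at ZT4, so that the groups did not overlap, with a difference of 0.11 (-0.02 to 0.24) and of 0.12 (-0.02 to 0.26) without ZT0 replicate 4.

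Immediate early genes, which neurons switch on within minutes of activity, were lower in mean at ZT4 in 16 of 28 members with all arrays and in 13 without ZT0 replicate 4. Fos, a subunit of the transcription factor AP-1, read 6.42, 6.50, 6.50 and 6.86 at ZT0 and 6.10, 6.23, 6.49 and 6.49 at ZT4. ZT0 replicate 4 was the highest of the 8 arrays. The difference was -0.25 (-0.48 to -0.02) with it and -0.15 (-0.38 to 0.08) without it. Dusp1, a phosphatase of MAP kinases, read 7.64, 7.50, 7.77 and 7.64 at ZT0 and 7.18, 7.18, 7.54 and 7.65 at ZT4. ZT4 replicates 3 and 4 overlapped the ZT0 arrays. The difference was -0.25 (-0.48 to -0.02), and -0.25 (-0.50 to -0.00032) without ZT0 replicate 4. Ier5 differed by -0.19 (-0.45 to 0.08), and by -0.29 (-0.54 to -0.03) without ZT0 replicate 4.

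Dusp1 is also a target of the glucocorticoid receptor, and another of the 20 measured genes of that kind lay the other way. Nfkbia, which encodes the inhibitor IκBα and answers to NF-κB as well, read 6.33, 6.64, 6.72 and 6.69 at ZT0 and 6.82, 6.90, 6.93 and 6.76 at ZT4. The lowest ZT4 array was just above the highest ZT0 array. The difference was 0.26 (0.09 to 0.44), and 0.29 (0.11 to 0.48) without ZT0 replicate 4. No other gene of the list had p under 0.05 with all arrays.

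Among the genes of above-median level whose arrays did not overlap, the largest differences upward were those of Acta2 and H1f2. Acta2, the actin of smooth muscle, read 7.997, 8.42, 8.68 and 8.15 at ZT0 and 8.78, 8.71, 8.86 and 8.99 at ZT4. The ZT0 arrays were spread over more than the ZT4 arrays, and ZT0 replicate 3 came close to them. The difference was 0.53 (0.21 to 0.84), a ratio of 1.44, and 0.47 (0.14 to 0.81) without ZT0 replicate 4. Myh11, the myosin heavy chain of the same cells, read 7.07, 7.23, 7.25 and 7.13 at ZT0 and 7.36, 7.36, 7.43 and 7.39 at ZT4. All ZT4 arrays were higher, with a difference of 0.21 (0.06 to 0.37) and of 0.20 (0.04 to 0.37).

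The pericyte and smooth muscle markers as a whole did not share that size. Of 10, 7 had a higher mean at ZT4 with all arrays and 8 without ZT0 replicate 4, but Tagln, another smooth muscle gene, differed by 0.01 and the pericyte marker Pdgfrb by -0.05. The summed level of the list, as its mean, was 7.20 to 7.35 in the ZT0 arrays and 7.33 to 7.41 in the ZT4 arrays. In a punch, more cells of a type and more RNA per cell cannot be told apart.

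H1f2, a linker histone, read 7.87, 8.02, 8.04 and 7.70 at ZT0 and 8.33, 8.24, 8.31 and 8.20 at ZT4. Here ZT0 replicate 4 was the lowest, and the other ZT0 arrays were still below every ZT4 array. The difference was 0.36 (0.16 to 0.56), and 0.29 (0.09 to 0.50) without that array. Id2, an inhibitor of basic helix-loop-helix factors, read 8.17, 8.21, 8.38 and 7.82 at ZT0 and 8.52, 8.59, 8.41 and 8.33 at ZT4, with groups that overlapped. Its difference was 0.32 (0.11 to 0.52), and 0.21 (0.01 to 0.40) without ZT0 replicate 4. Id1, Id3 and Id4 lay between -0.06 and 0.05.

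**Figure D2:**
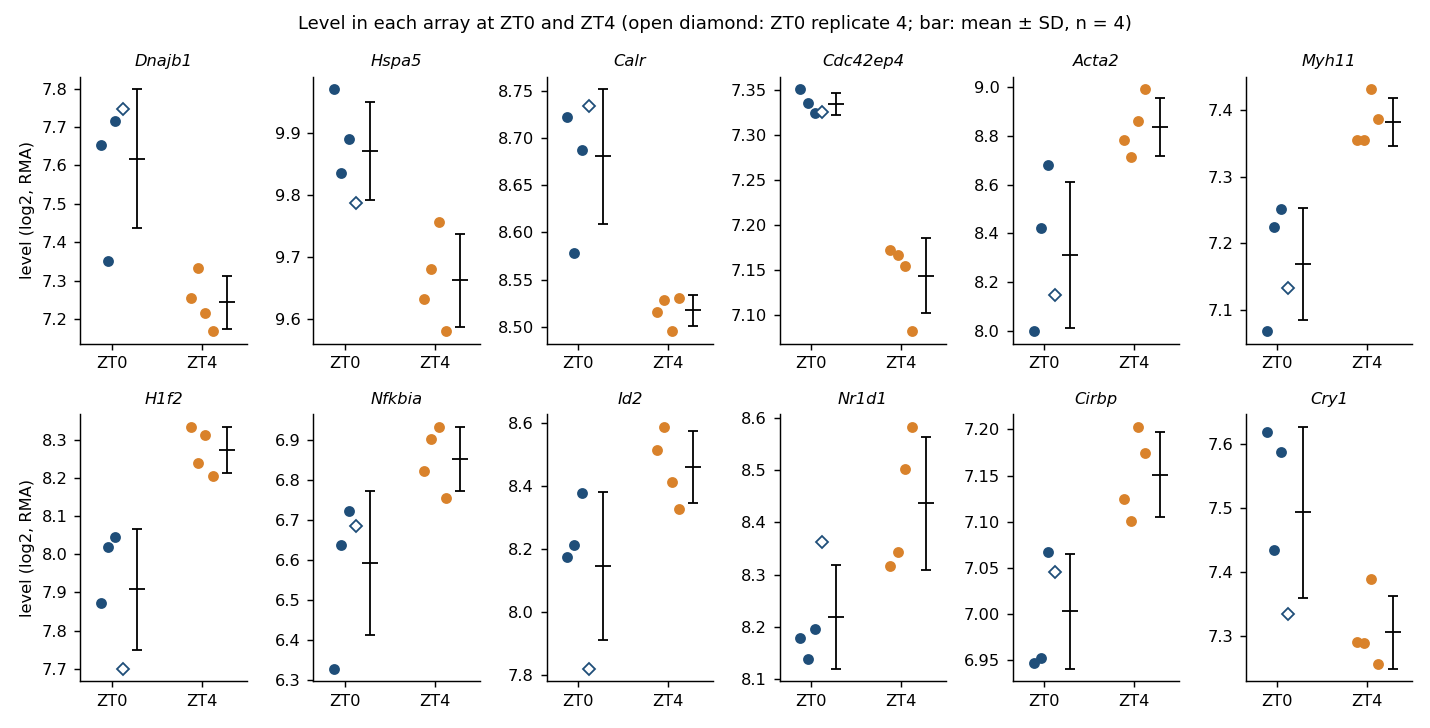
Level (log2, RMA) of 12 genes in each of the 4 ZT0 and 4 ZT4 arrays, with mean ± SD as bars. The open diamond is ZT0 replicate 4. The groups do not overlap in 9 of the 12 panels, and in those of Id2, Nr1d1 and Cry1 they do. The genes shown were picked for that lack of overlap or as list members of small p, so this count is no test. Over all transcripts the groups did not overlap in 0.718% (higher at ZT4) and 0.636% (lower at ZT4).

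Of the genes of above-median level that were higher at ZT4 without overlap, the 10 of smallest p were named, and those not yet described follow. Pros1 is the anticoagulant protein S and a ligand of TAM receptors, Grik5 a kainate receptor subunit, Mpv17l2 a protein of the mitochondrial ribosome's assembly, Ctps the enzyme that makes CTP, Crabp2 a retinoic acid carrier and Myod1 a muscle determination factor. Their differences were 0.35 for Pros1, 0.23 for Grik5, 0.21 for Mpv17l2, 0.22 for Ctps, 0.30 for Crabp2 and 0.21 for Myod1, and 0.20 to 0.32 without ZT0 replicate 4. Grik5, for one, read 7.06, 6.97, 7.20 and 7.19 at ZT0 and 7.26, 7.45, 7.29 and 7.35 at ZT4. A probe set of Tulp4 differed by 0.24 (0.23 without ZT0 replicate 4), while the one of higher level for the same gene differed by 0.05 in either setting.

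Of the genes of above-median level that were lower at ZT4 without overlap, the 10 of smallest p were named, which after Dnajb1 and Hspa5 were Acp6, Draxin, Mir365-1, Cdc42ep4, Zfp385c, Sftpb, Prss41 and Pip5kl1. Cdc42ep4, an effector of the small GTPase CDC42, read 7.35, 7.34, 7.33 and 7.33 at ZT0 and 7.17, 7.17, 7.16 and 7.08 at ZT4. Its ZT0 arrays were nearly alike, and the gap between the groups was wide beside their spread. The difference was -0.19 (-0.33 to -0.06), and -0.19 (-0.34 to -0.05) without ZT0 replicate 4. Acp6, a lysophosphatidic acid phosphatase, differed by -0.26 and Draxin, an axon guidance protein, by -0.24, and without ZT0 replicate 4 by -0.22 and -0.24. The differences of Zfp385c, Sftpb, Prss41 and Pip5kl1 lay between -0.24 and -0.18, and between -0.23 and -0.12 without that array. Zfp385c and Pip5kl1 read highest in ZT0 replicate 4, and without it the difference of Pip5kl1 was -0.12 (-0.26 to 0.03).

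Mir365-1 is the gene of a microRNA, and its probe set read 7.43, 7.37, 7.31 and 7.83 at ZT0 and 6.99, 7.26, 7.14 and 6.98 at ZT4. ZT0 replicate 4 was high, and the other ZT0 arrays were still above all ZT4 arrays. The difference was -0.40 (-0.67 to -0.12), and -0.28 (-0.55 to -0.01) without that array. The sources used here do not say whether the probe set reads the precursor or the mature forms. The probe set of Mir365-2, which yields the same -3p form, differed by 0.06. The mature forms are printed with the seed, bases 2 to 8, in capitals (RefSeq, build GRCm38.p6).
mmu-miR-365-1-5p (chr16:13453855-13453877, + strand): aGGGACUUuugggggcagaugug
mmu-miR-365-3p (chr16:13453895-13453916, + strand): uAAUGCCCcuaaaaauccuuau

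The smallest p values of all fell outside the rule that picked these genes, because the level lay below the median, and are named after their values were seen. Usf1, a transcription factor that binds E-boxes, read 5.501, 5.41, 5.39 and 5.37 at ZT0 and 5.803, 6.10, 5.81 and 5.92 at ZT4. The groups were well apart, and the difference was 0.49 (0.29 to 0.69) with all arrays and 0.47 (0.26 to 0.69) without ZT0 replicate 4. Rnf182, a ubiquitin ligase, differed by 0.34 (0.19 to 0.49) and by 0.30 (0.14 to 0.46) without that array. Bad, a BH3-only protein that favours cell death, read 6.85, 6.81, 6.92 and 6.82 at ZT0 and 6.61, 6.36, 6.65 and 6.57 at ZT4. All ZT4 arrays were lower, with a difference of -0.30 (-0.44 to -0.16) and of -0.31 (-0.46 to -0.16) without ZT0 replicate 4.

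Genes of dopamine neurons had a higher mean at ZT4 in 14 of 21 members with all arrays and in 14 without ZT0 replicate 4, with median differences of 0.0855 and 0.0698. Th, the rate-limiting enzyme of dopamine synthesis, read 7.51, 7.90, 7.90 and 7.55 at ZT0 and 7.51, 7.61, 7.62 and 8.06 at ZT4. The groups lay over each other, and the difference was -0.02 (-0.30 to 0.27), and -0.07 (-0.37 to 0.22) without ZT0 replicate 4. Slc6a3 differed by 0.17 (-0.24 to 0.58), Ddc, which makes dopamine from L-DOPA, by 0.18 (-0.05 to 0.41), and the D2 receptor gene Drd2 by 0.13 (-0.03 to 0.29). Without ZT0 replicate 4 these were 0.10, 0.07 and 0.10. Calb1, calbindin, a calcium buffer of a subset of VTA neurons, read 7.84, 7.68, 7.92 and 7.11 at ZT0 and 7.73, 8.17, 8.11 and 7.76 at ZT4. ZT0 replicate 4 was the low array, and the difference was 0.31 (0.01 to 0.60) with it and 0.13 (-0.12 to 0.38) without it. All 4 measured serotonin neuron markers, which may come in part from the neighbouring raphe, had a higher mean at ZT4 in both settings (medians 0.114 and 0.110), each with overlap of the arrays.

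The largest difference of any transcript was in a neuropeptide. Cartpt, the precursor of CART peptides, read 7.01, 7.72, 8.12 and 6.69 at ZT0 and 7.50, 8.25, 8.57 and 8.55 at ZT4. Both groups spanned more than 1 log2 unit, and they overlapped. The difference was 0.83 (0.22 to 1.44), and 0.60 (-0.0035 to 1.20) without ZT0 replicate 4, the lowest array. Of the 18 neuropeptide genes 12 had a higher mean at ZT4, and 11 without that array. Nts, neurotensin, differed by 0.36 (-0.02 to 0.73) and by 0.10 (-0.19 to 0.40) without ZT0 replicate 4, in which it read 5.54 against 6.35 to 6.80 in the other ZT0 arrays.

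Splicing factor genes depended most on ZT0 replicate 4. With all arrays 11 of 23 had a lower mean at ZT4 and the median difference was 0.0017, and without it 20 of 23 did and the median was -0.118. The mean level of the list was 9.38, 9.17, 9.36 and 8.77 in the ZT0 arrays and 9.29, 9.24, 9.15 and 9.001 in the ZT4 arrays. The arrays numbered 4 were the lowest of both groups. Only that of ZT0 is left out in the second setting, and no median without both was computed for this list. No member had an unadjusted p under 0.05 and a lower mean with all arrays, where 1.16% of all transcripts did, and 5 of 23 did without ZT0 replicate 4, where 2.11% did. Tra2a, a splicing activator, read 8.81, 8.47, 8.80 and 8.02 at ZT0 and 8.46, 8.37, 8.27 and 8.04 at ZT4. Without the array at 8.02 the groups did not overlap, and the difference went from -0.24 (-0.51 to 0.03) to -0.41 (-0.63 to -0.18). Of the other Tra2a probe sets, both of lower level, one had -0.12 with all arrays and -0.11 without that one, and the other -0.09 and -0.26. For Hnrnpc, which binds nascent transcripts, the difference went from -0.19 to -0.30 (-0.50 to -0.09). For Srsf10, a splicing repressor named after its values were seen, it went from -0.06 to -0.26 (-0.45 to -0.08). Another Srsf10 probe set, of lower level, went from 0.09 to -0.25. Glycolysis genes moved the opposite way with the same array, which read 9.63 for their mean level against 9.30 to 9.42 in the other ZT0 arrays. With it 12 of 15 had a lower mean at ZT4 (median -0.0745), and without it 9 did (median -0.0076). What set this array apart was not tested.

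**Figure D3:**
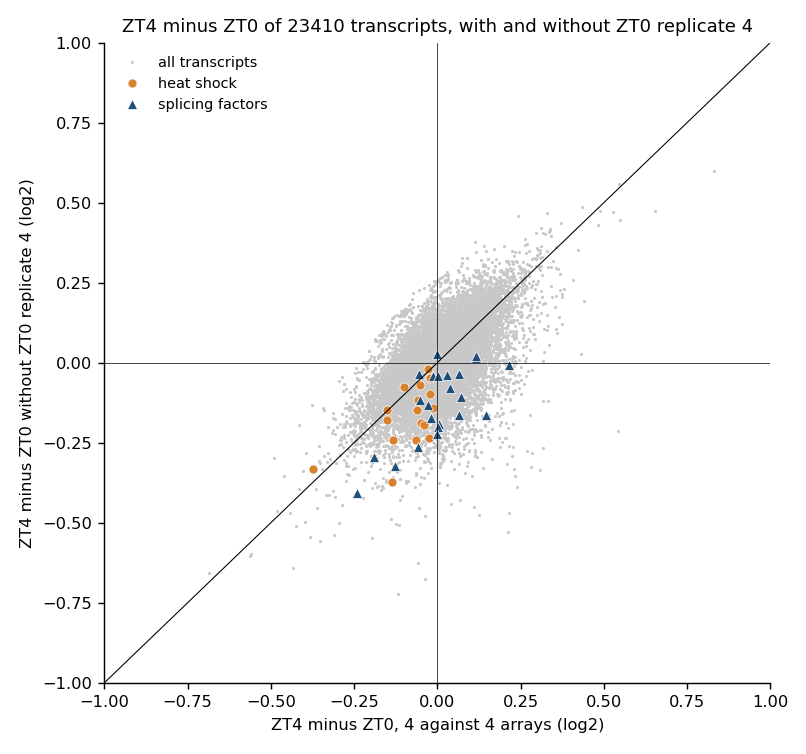
Difference ZT4 minus ZT0 (log2) of each of 23410 transcripts over 4 against 4 arrays (x axis) and without ZT0 replicate 4 (y axis), with the diagonal of equal values. Of the 23 splicing factors (triangles), 11 lie left of 0 and 20 below 0, and all 17 heat shock genes (circles) are below 0 on both axes.

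Over the 35 gene lists the median differences ran from -0.0745 for glycolysis to 0.157 for the cold-inducible pair with all arrays, and from -0.149 for heat shock to 0.164 for that pair without ZT0 replicate 4. In 24 lists the median kept its sign in all 4 alternatives run for medians, which were leaving out ZT0 replicate 4, quantile scaling, centring of array medians and averaging the probe sets of a gene. The markers of astrocytes, oligodendrocytes, endothelium and microglia had medians between -0.0302 and 0.0474 with all arrays.

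**Figure D4:**
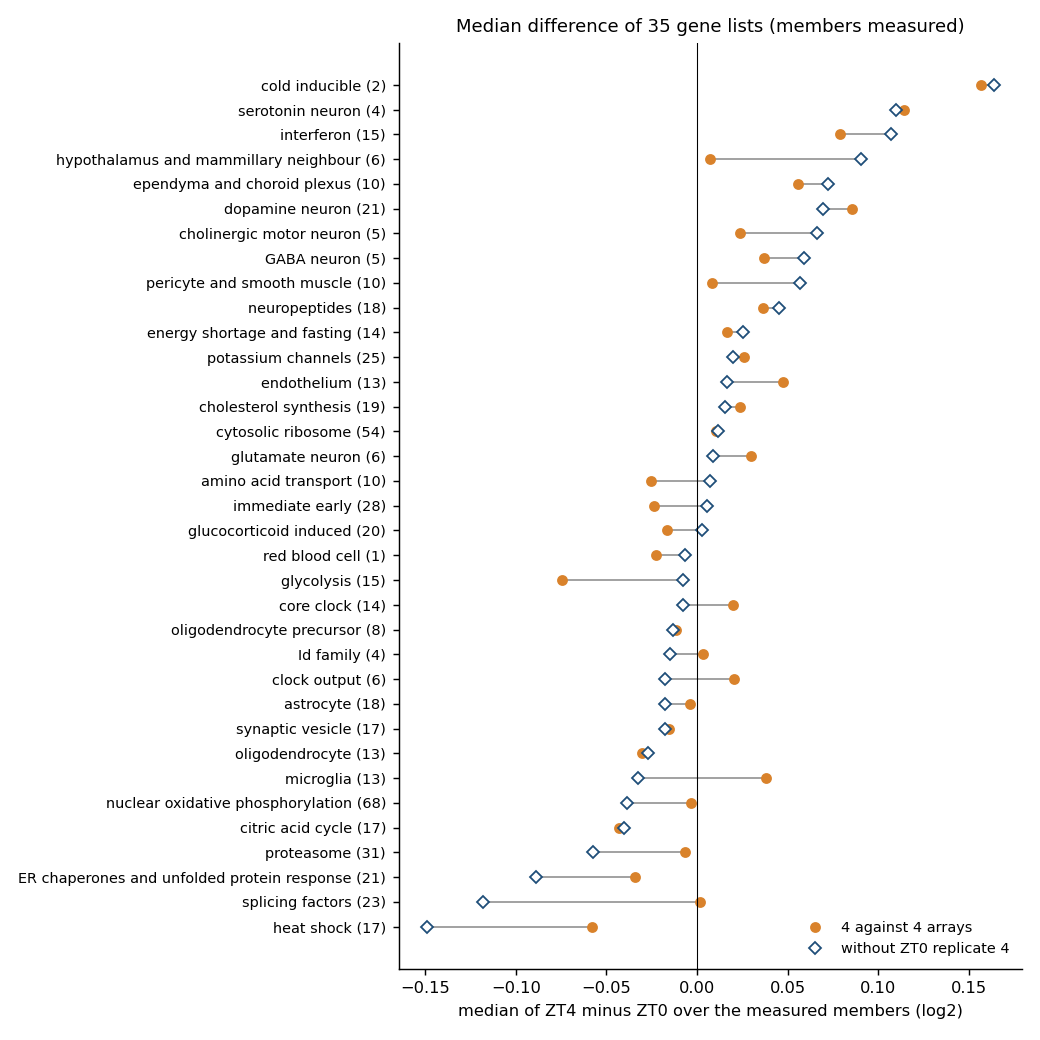
Median over the measured members (number in parentheses) of the difference ZT4 minus ZT0 (log2, x axis) in 35 gene lists. Filled circles are over 4 against 4 arrays and open diamonds without ZT0 replicate 4, with lists in the order of the diamonds. The longest lines join the values of the splicing factors (0.0017 and -0.118) and of heat shock (-0.058 and -0.149).

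The step into the light was set against the step into the dark, ZT16 minus ZT12, which uses 8 other arrays. No transcript passed the test of the difference between the steps after adjustment (0%, smallest adjusted p of limma 1, and 0.584 without ZT0 replicate 4). At an unadjusted limma p under 0.05 there were 944 transcripts (4.03%), and 1412 (6.03%) without that array. Hspa5 had a difference of -0.21 in the light step and 0.29 in the dark step, which gives -0.50 (SE 0.11) between them. Fos stood likewise at -0.25 and 0.33, with -0.57 (SE 0.16) between the steps. Nr1d1 and Cirbp ran the other way, with dark steps of -0.24 and -0.27 and differences between the steps of 0.46 (SE 0.12) and 0.42 (SE 0.10). For Dnajb1 the dark step was 0.05 and the difference -0.43 (SE 0.13), and for Usf1 -0.18 and 0.66 (SE 0.14). Hspa5, Fos, Dnajb1 and Usf1 were named for their difference between ZT4 and ZT0, which the difference between the steps contains. Nr1d1 and Cirbp were named as list members, but were taken up here with that difference known. The values of all these genes here are therefore a description and no test. Without ZT0 replicate 4 the differences between the steps were -0.53 (SE 0.12) for Hspa5, -0.47 (SE 0.15) for Fos, 0.51 (SE 0.12) for Nr1d1, 0.43 (SE 0.11) for Cirbp, -0.38 (SE 0.14) for Dnajb1 and 0.65 (SE 0.14) for Usf1.

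Over the whole day these genes took different courses after ZT4, described here by their means. Nr1d1 stood at 8.22 at ZT0, 8.44 at ZT4 and 8.70 at ZT8, and was back at 8.19 at ZT20. Cirbp stood at 7.003 at ZT0, 7.34 at ZT12 and 6.95 at ZT20. Hspa5 and Calr had their highest mean at ZT0 and their lowest at ZT12, 9.87 and 9.44 for Hspa5 and 8.68 and 8.30 for Calr, with ZT4 on the way. Dnajb1 was 7.62 at ZT0 and between 7.24 and 7.40 at the other 5 time points, and Usf1 was 5.42 at ZT0 and between 5.76 and 5.95 at the others.

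In all 20 genes picked for their difference without overlap, the ZT0 mean was the highest or lowest of the 6 time points, and in 9 the ZT4 mean was at the other end. These genes were chosen for standing away from ZT0, so this describes them and is no test. In Mpv17l2, Myod1 and Cdc42ep4 all 16 later arrays also lay beyond every ZT0 array, and in Usf1 and Herpud1, outside that set, they did as well.

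**Figure D5:**
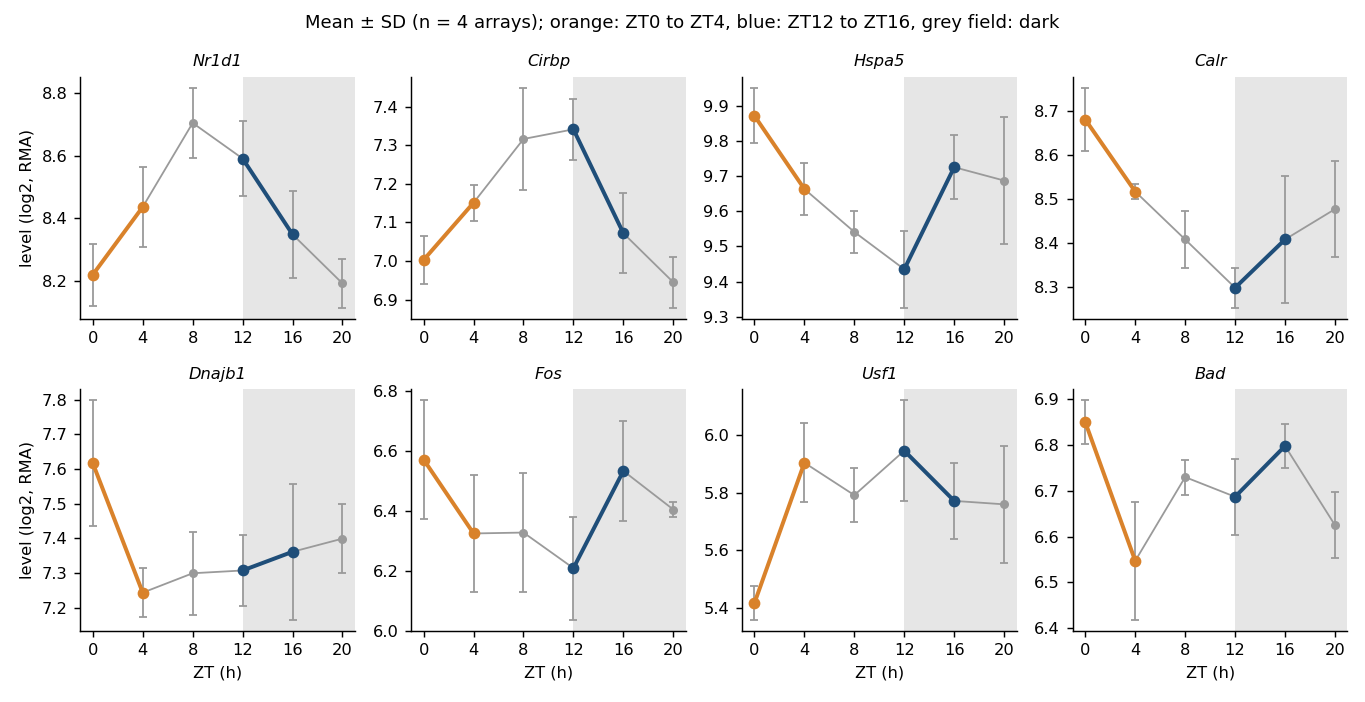
Mean level (log2, RMA) ± SD of 8 genes at 6 time points (ZT in h), 4 arrays each, with the dark phase as a grey field. The step from ZT0 to ZT4 is in orange and the step from ZT12 to ZT16 in blue. Hspa5 and Calr have their highest mean at ZT0 and their lowest at ZT12, and the ZT0 means of Dnajb1 and Usf1 lie beyond those of the other 5 time points.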

How the data were processed

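RNA of VTA punches was measured on 24 Affymetrix Mouse Gene 1.0 ST arrays. The authors deposited 1 table of log2 values, background-corrected and quantile-normalised by RMA in R 2.13.1 per the labels, for 35556 probe sets; genes come from the platform annotation, with 21698 names updated through RefSeq. Tests covered the 23410 probe sets with a gene (21789 with 1 gene, 1621 with several); 12146 had none. Group means of all 24 arrays were fitted with limma 3.58.1 in R 4.3.3, and of 23 without ZT0 replicate 4, with Benjamini-Hochberg adjustment over all 23410. A list gene with several probe sets is represented by the one of highest mean level. Named genes were, up to 10 a direction, those past the adjusted test (none were), then those of smallest p with 1 gene, a level above the median and no overlap of the arrays, then clock genes and up to 4 members of smallest p of each of 35 lists. The members and lists were chosen with earlier results of these data known. Scripts were tested on simulated data. The labels' 4 h intervals were followed. Replicate numbers were not taken to pair the arrays, and the number of arrays limits the precision. RMA values are compressed, so ratios understate the change of dim genes, and levels of different genes are not comparable. Alternatives were leaving out each array, the 8 arrays alone, other scalings, array weights, robust and plain tests, all probe sets, a filter on level, and a replicate block.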

Additional observations from a re-analysis of the deposited data

Results flagged for a closer look

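In groups of 4 arrays, a value was picked out where its gap to the nearest other array relative to the group's range exceeded Dixon's 95% critical value, which chance does in about 1 group of 20. Of 194 groups tested 12 had such an array, and in 4 of them it was ZT0 replicate 4. That array had a median correlation of 0.970 with the others (0.990 to 0.991 in the other ZT0 arrays), and it stood apart for Zfp385c at 8.15 (others 7.93 to 7.96), Pip5kl1 at 7.15 (6.90 to 6.93) and Dnajc3 at 8.37 (8.74 to 8.79). Mpv17l2 read 8.54 in ZT4 replicate 4, where the others read 8.40. Oas1a, an interferon-induced sensor of double-stranded RNA, read 6.99 in ZT0 replicate 2 (6.56 to 6.62). For mean levels of gene lists, ZT0 replicate 1 was at 7.57 for cholesterol synthesis (7.50) and at 6.30 for the red blood cell gene (6.53 to 6.56), and ZT4 replicate 2 at 7.33 for pericyte and smooth muscle markers (7.40 to 7.41). ZT4 replicate 3 was at 7.83 for glutamate neuron markers (7.76 to 7.77), and ZT4 replicate 4 at 7.25 for the Id family (7.34) and at 8.03 for amino acid transport (7.81 to 7.84). What set these arrays apart was not tested.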

How the results depend on the processing

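No alternative gave a transcript with adjusted p under 0.05, in 17 alternatives with all arrays, 11 without ZT0 replicate 4 and 19 for the difference of the steps. The count at unadjusted p under 0.05, 576 of 23410 with all arrays, was 377 with the 8 arrays alone and 1199 with array weights. It was 947 over all 35556 probe sets, a larger set, and 235 over the transcripts above the median level, a smaller one. When 1 array was left out it ran from 449 to 1116 (878 without ZT0 replicate 1 and 964 without ZT0 replicate 2). Without ZT0 replicate 4 the count of 1116 became 1814 with array weights and 670 to 1984 when 1 more array was left out (1984 when this was ZT0 replicate 2, 702 when it was ZT0 replicate 3 and 670 when it was ZT4 replicate 4); quantile scaling turned its split of 623 higher and 493 lower into 508 and 601. The step difference held 944, and 809 to 1412 with 1 array left out. The heat shock count of 17 of 17 ran from 9 to 17. Arrays of the same number deviated together with r = 0.255, -0.129, 0.00676 and 0.582, and only number 4 correlated best with its own. The numbers were therefore not taken as pairs, and why the arrays numbered 4 deviated together was not tested. With a replicate block the counts at unadjusted limma p under 0.05 were 637, 896 without ZT0 replicate 4 and 1007 for the steps. Of 60 genes followed, 52 never changed sign. Many of the 60 were named for arrays that did not overlap, and leaving out 1 array cannot change their sign. Several alternatives, such as the 8 arrays alone and the plain test, leave the difference of means as it was. With 1 array left out, the difference ran from -0.0655 to 0.0395 for Per2 (0.0225 with array weights), -0.137 to 0.0443 for Th, -0.373 to 0.0194 for Chordc1, -0.234 to 0.0782 for Hspa4, -0.00811 to 0.351 for Srsf5, -0.264 to 0.0562 for Srsf10, -0.311 to 0.136 for Pdia3 and -0.242 to 0.0485 for Hspe1. List medians of the hypothalamic and mammillary neighbours (0.0904) and microglia (-0.0325) moved by more than an SD without ZT0 replicate 4. The SD was that of the list's mean level, pooled over the ZT0 and ZT4 arrays. No other list median moved by more than its SD in the 4 alternatives run for medians. The SD includes ZT0 replicate 4 and is wide in lists which that array shifted, so such lists could pass unpicked. The splicing factors, for one, went from 0.0017 to -0.118, with an SD of 0.28 at ZT0. The alternatives run without ZT0 replicate 4 included further arrays left out, array weights, quantile scaling and the replicate block, and these were chosen after seeing the data. The causes were not tested. Alternatives that use few arrays leave few degrees of freedom, and 4 arrays a group limit what could be detected.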

Other observations

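Interferon-induced genes had a higher mean at ZT4 in 13 of 15 members with all arrays and in 11 without ZT0 replicate 4, with median differences of 0.0788 and 0.107. Of all transcripts 49.1% and 44.8% had a lower mean. The mean level of the list overlapped, at 6.34 to 6.47 in the ZT0 arrays and 6.43 to 6.56 in the ZT4 arrays. No count with another array left out was made for this list. Ifit3, an antiviral RNA-binding protein, read 7.11, 7.20, 7.42 and 7.28 at ZT0 and 7.45, 7.81, 7.30 and 7.41 at ZT4. ZT4 replicate 2 was the highest array and the groups overlapped, with a difference of 0.24 (95% confidence interval -0.01 to 0.49). Gbp4, a guanylate-binding protein, differed by 0.17 (-0.02 to 0.36) in the light step and by -0.34 in the dark step. None of the 15 had an unadjusted limma p under 0.05.

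Of the 12146 probe sets with no gene, none had a limma adjusted p under 0.05 in either setting, and 438 had an unadjusted p under 0.05 with all arrays and 586 without ZT0 replicate 4. Both counts were below the 5% that would fall under that threshold if nothing differed. In the test of the 23410 transcripts with a gene the shares were 2.46% and 4.77%.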
